A study of Homo sapiens with 6 samples.

Results

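Mitochondrial ribosomal proteins were described here at the RNA level in human pluripotent stem cells (hPSCs) grown under simulated microgravity (sµg) or normal gravity (1g). The members are all protein-coding genes whose GENCODE symbol starts with MRPL or MRPS followed by a digit, which gave 78 of the 60719 genes in the deposited tables, 49 named for the large subunit and 29 for the small subunit. Every sample is labelled with both H1 and H9, established lines of human embryonic stem cells, and the sources used here do not assign a library to a line. All cultures were kept on Matrigel, a basement membrane extract, in StemFlex medium. They were then held for 96 h either static (1g, n = 3) or on a 2-D clinostat (sµg, n = 3), a device whose rotation averages out the direction of gravity and which models weightlessness only in that sense. Poly(A) RNA was sequenced with a stranded kit, and the question was how the rotated cells differ from the static cells.

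The mitochondrial ribosome sits in the mitochondrial matrix and translates the few mRNAs of the mitochondrial genome, all of which encode subunits of the respiratory chain and the ATP synthase. Its proteins are encoded in the nucleus and imported, while its rRNAs come from mitochondrial DNA. The small subunit decodes the mRNA and the large subunit forms the peptide bonds. Some of the proteins have counterparts in bacterial ribosomes, and others are found only in mitochondria. Names do not always give the place of a protein: MRPS18A and MRPS30 sit in the large subunit, and MRPS36 is now counted as a component of the 2-oxoglutarate dehydrogenase complex.

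The libraries held 19971097 to 28506848 expected counts. Pluripotent stem cell markers summed to 14442 to 14798 CPM (counts scaled to the library total) in the 1g libraries and to 11984 to 12168 CPM in the sµg libraries. Of the 12 markers 3 were lower (PODXL, DNMT3B and LIN28A, with log2 fold changes of −0.74, −0.50 and −0.37) and 1, TERF1, was higher. POU5F1, SOX2 and NANOG, at 1945, 283.5 and 136.6 CPM in 1g, did not pass the test. Their log2 fold changes were 0.02, 0.01 and −0.08. Markers of trophectoderm and amnion were lower in sµg for 10 of 11 tested genes, those of mesoderm and endoderm for 4 of 7 (5 further markers, among them TBXT and SOX17, were not tested for low counts), those of neural cells for 3 of 8 with 3 higher, and those of fibroblasts for 2 of 4 with 2 higher, while DCN, LUM, COL3A1 and FAP were too low to be tested. The sums were 564.8 to 568.8 against 442.9 to 461.8 CPM for trophectoderm and amnion and 16.5 to 18.9 against 10.2 to 10.9 CPM for mesoderm and endoderm. They were 232.5 to 244.7 against 273.9 to 281 CPM for neural markers and 699.1 to 723.1 against 488 to 517.3 CPM for fibroblast markers. Such sums follow the most abundant markers. KRT18, at 423.6 CPM in 1g, had a log2 fold change of −0.11, whereas the median of the trophectoderm and amnion list was −2.17. In the neural list TUBB3, OTX2 and MAP2, at 104.7, 108.3 and 7.97 CPM in 1g, had log2 fold changes of 0.28, 0.14 and 0.75. Those of PAX6, ZIC1 and NEUROG2, at 3.99, 1.39 and 0.62 CPM in 1g, were −2.32, −1.21 and −2.04. COL1A1 and COL1A2 of the fibroblast list, at 327 and 129 CPM in 1g, had log2 fold changes of −1.91 and −0.38. THY1 and POSTN of that list, at 254.2 and 1.26 CPM in 1g, had log2 fold changes of 0.31 and 0.79. The part of these shifts in the results below was not tested. In bulk RNA, fewer cells of a type and less RNA per cell cannot be told apart.

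All 78 genes were expressed well above the filter on low counts, with at least 202 counts in every library. Levels between genes are compared in TPM (transcripts scaled to the library total), which divides by transcript length. In 1g the large subunit genes ranged from 21 to 293.5 TPM with a median of 78.1 TPM, and the small subunit genes from 19.3 to 304.6 TPM with a median of 72.5 TPM. The highest gene stood at 14 times the lowest in the large subunit and at 15.8 times the lowest in the small subunit. MRPL51, found only in mitochondrial ribosomes, led the large subunit with 293.5 ± 8.62 TPM in 1g and 325.9 ± 20.5 TPM in sµg (SD, n = 3 each). MRPL20, with a bacterial counterpart, and MRPL52 followed at 231.4 ± 2.57 and 211.5 ± 8.66 TPM in 1g. The lowest were MRPL57 at 21 ± 1.75, MRPL50 at 22.1 ± 0.223 and MRPL40 at 24.8 ± 1.11 TPM. In the small subunit MRPS34 stood first at 304.6 ± 3.15 TPM in 1g, far above MRPS15 at 148.6 ± 3.45 and MRPS24 at 137.8 ± 6.72 TPM. MRPS17 at 19.3 ± 1.52, MRPS10 at 27.7 ± 1.12 and MRPS31 at 30.4 ± 1.43 TPM were the lowest.

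**Figure D1:**
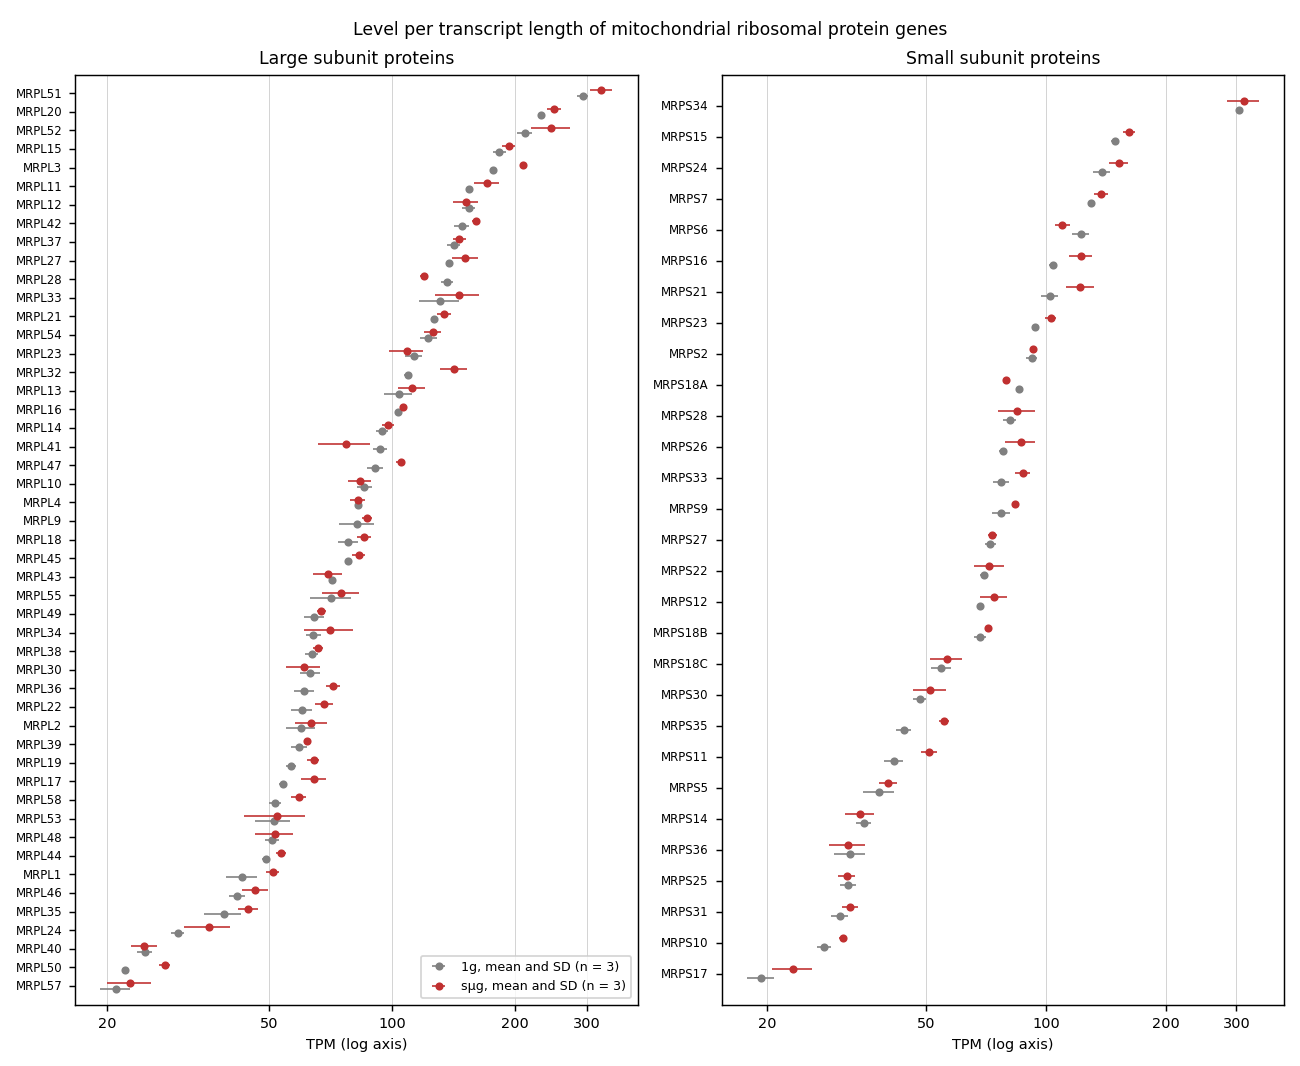
TPM (log axis) of the 49 large subunit and 29 small subunit genes, with the mean (point) and SD (line) of the 3 1g libraries in grey and of the 3 sµg libraries in red. MRPL51 and MRPS34 lead their subunits and MRPL57 and MRPS17 close them, and for most genes the distance between conditions is small beside the spread between genes.

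Under sµg most mitochondrial ribosomal protein genes stood slightly above their 1g level, and 16 of the 78 passed the test. At an adjusted p under 0.05, edgeR called 8 of the 49 large subunit genes higher and 2 lower in sµg, and 4 of the 29 small subunit genes higher and 2 lower. Over all 16763 genes tested, 15.5% were higher and 18.2% lower, or 33.7% in either direction, whereas 20.4% of the large and 20.7% of the small subunit genes were called. The share of members that were higher (15.4%) was near that of all genes, and the share that were lower (5.13%) was below it. The log2 fold change was positive for 38 large and 23 small subunit genes, with a median of 0.07 in each subunit against 0.01 over all genes tested. It lay between −0.30 and 0.31, so no member reached an absolute value of 0.5, a size passed by 14% of all genes tested.

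The 3 sµg libraries lay above the 3 1g libraries in CPM for 18 members and below them for 5, where the same held for 21.8% and 23.7% of all genes tested. In TPM, 35 members lay above and 4 below, against 21.2% and 16.3% of all genes. Summed over the large subunit, the level was 4638 ± 15.1 TPM in 1g and 4973 ± 192 TPM in sµg (SD, n = 3 each), an increase of 7.22%. For the small subunit it was 2315 ± 26 and 2465 ± 78.5 TPM, an increase of 6.5%. By limma on log2(TPM + 1) the median log2 fold change was 0.03 over all genes tested. It was 0.11 in the large and 0.08 in the small subunit. In CPM the sums increased by 4.66% and 4.46%. Without sµg replicate 3 the increases were 4.87% and 4.66% in TPM and 1.86% and 1.90% in CPM.

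**Figure D2:**
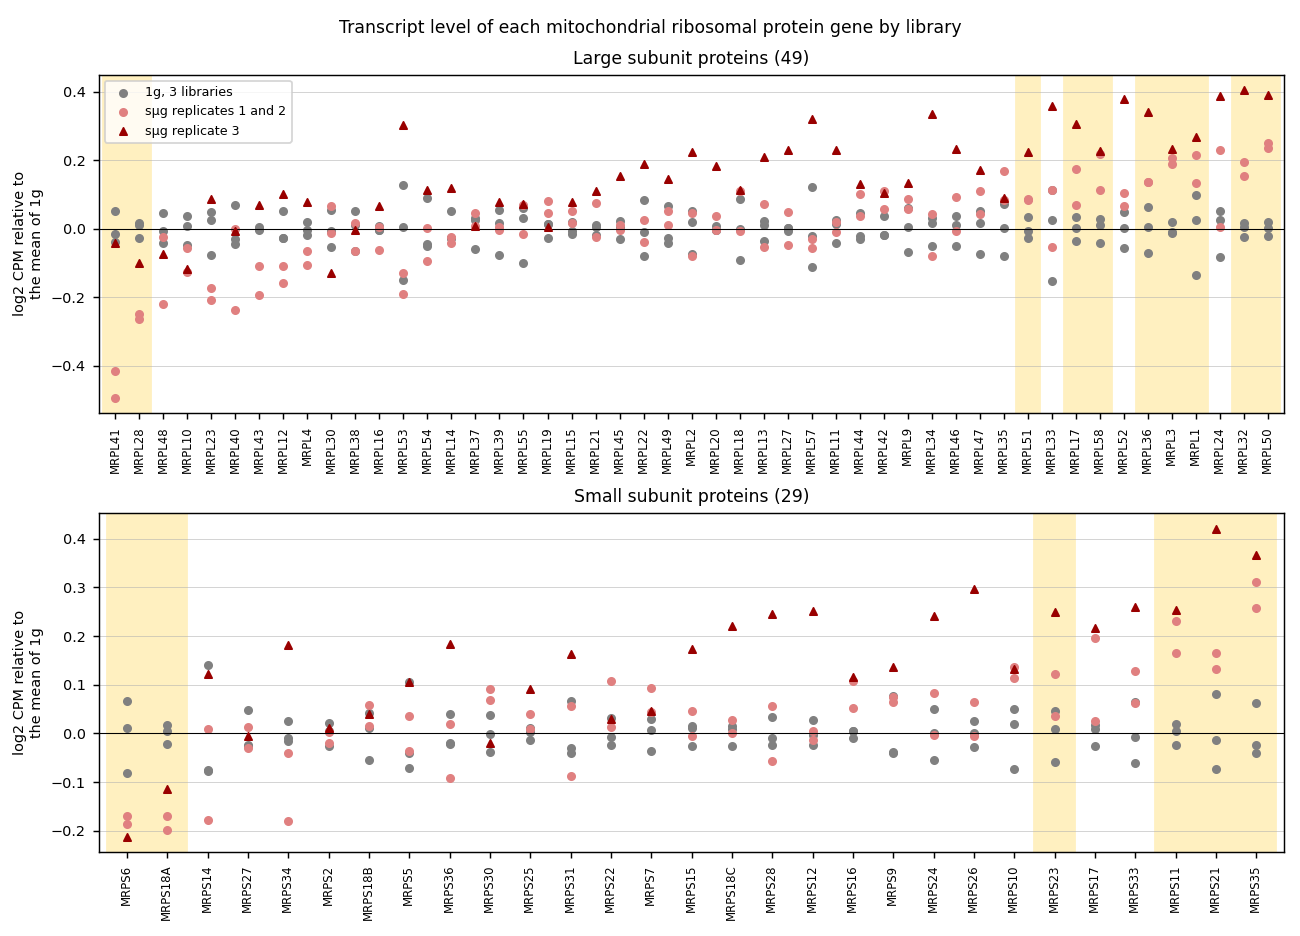
log2 of the CPM of each gene in each library relative to its mean in 1g, for the 49 large (top) and 29 small (bottom) subunit genes ordered by fold change, with the 3 1g libraries in grey, sµg replicates 1 and 2 as light red circles and sµg replicate 3 as dark red triangles. Yellow bands mark the 16 genes with an adjusted p under 0.05 from edgeR, and the triangle is the highest sµg point for 62 of the 78 genes.

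The library of sµg replicate 3 differed from the other sµg libraries in these genes. Its CPM was the highest of the 3 sµg libraries for 40 of 49 large and 22 of 29 small subunit genes, or 79.5% of members, against 38.5% of all genes tested. Relative to the mean of sµg replicates 1 and 2, its median log2 ratio was 0.15 in the large and 0.10 in the small subunit, and 0.00 over all genes. Against the mean of 1g, the median log2 ratio of the large subunit was 0.04, −0.00 and 0.13 in sµg replicates 1, 2 and 3, and that of the small subunit was 0.06, 0.02 and 0.16. In TPM this library was the highest for 31 large and 16 small subunit genes. Cytosolic ribosomal proteins, which build the ribosome outside mitochondria, were highest in it for 81 of 83 genes, with a median log2 ratio of 0.22. The 13 mitochondrially encoded mRNAs were lowest in it without exception, with a median of −0.22.

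This excess went along with transcript length. Among all protein-coding genes tested, the median log2 ratio of CPM in sµg replicate 3 over replicates 1 and 2 was 0.28 for transcripts under 500 bases, 0.16 from 500 to 1000 bases, 0.08 from 1000 to 1500 bases and −0.10 from 5000 bases up. Mitochondrial ribosomal protein transcripts are short, with a median length of 1072 bases against 2440 bases for all protein-coding genes tested. Of the 26 members between 500 and 1000 bases, 25 were highest in sµg replicate 3, with a median log2 ratio of 0.20. The median was 0.10 for the 32 members from 1000 to 1500 bases and 0.00 for the 6 from 2000 to 3000 bases. MRPL53, MRPL41 and MRPL57 had the largest ratios, at 0.46, 0.41 and 0.36, and of these MRPL57 is long, with 2233 bases. MRPL30 and MRPS30 had the lowest, at −0.16 and −0.10. The part of length in the difference between conditions was not tested. An offset for effective length adjusts only for how the length of a gene differs between libraries, so it cannot test a trend across genes. In the fit with that offset 7 members were higher and 2 lower, or 11.5% of members against 18.5% of all genes. MRPL1, MRPL36, MRPL41, MRPL51, MRPL58, MRPS18A, MRPS21 and MRPS23 were not called in it, and MRPS16 was newly called. Limma on TPM did not call MRPL41, MRPL51, MRPS18A, MRPS23 and MRPS6. With 1 added before the log2, limma called 14 members higher and 1 lower, or 19.2% against 17.8% of all genes. Newly called in that limma fit were MRPL19, MRPL47, MRPS16 and MRPS33.

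**Figure D3:**
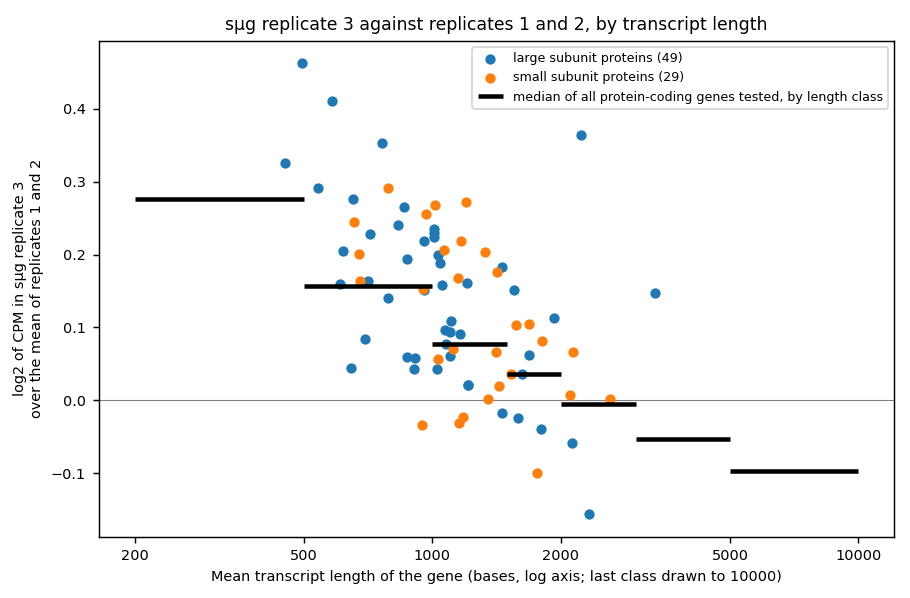
log2 of CPM in sµg replicate 3 over the mean of sµg replicates 1 and 2 for each of the 49 large (blue) and 29 small (orange) subunit genes, against mean transcript length in bases (log axis), with black bars for the median of all protein-coding genes tested in each length class. The bars step down from 0.28 in the shortest class to −0.10 in the longest, and most members lie where the bars are above 0.

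When sµg replicate 3 was left out, 13 members were higher and 8 lower by edgeR, and 53 of 78 log2 fold changes were positive, with medians of 0.03 in both subunits. The called share was 26.9% of members against 36.3% of all genes tested in that fit. Of the 16 members called with all libraries, 14 remained called. MRPL36 and MRPS23 were lost. Newly lower were MRPL12 at −0.13 (adjusted p = 0.00636), a stalk protein that also binds mitochondrial RNA polymerase, MRPL23 at −0.19 (adjusted p = 0.00624), MRPL43 at −0.15 (adjusted p = 0.0241) and MRPS34 at −0.10 (adjusted p = 0.0232), all from edgeR. Newly higher were MRPL35, MRPL42 and MRPS10, with log2 fold changes of 0.14, 0.09 and 0.13. Without sµg replicate 2, 20 members were higher and 3 lower, or 29.5% of members against 28.4% of all genes. Without 1g replicate 1 the numbers were 5 and 3, or 10.3% against 25.5%.

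MRPL50, found only in mitochondrial ribosomes, had the largest increase in the large subunit. Its gene lies on chromosome 9 from 101387633 to 101398618 (GRCh38, minus strand), and it had 52.7, 53.5 and 54.2 CPM in 1g and 63.6, 63.1 and 70.2 CPM in sµg. The groups did not overlap, and the log2 fold change was 0.30 ± 0.05 (SE; edgeR adjusted p = 0.000114), an increase of 22.7% in mean CPM. MRPL3, a conserved core protein of the large subunit (chromosome 3, 131462212 to 131502983), varied little between replicates. It had 192.8, 193.4 and 197.3 CPM in 1g and 224.4, 221.8 and 228.7 CPM in sµg, a log2 fold change of 0.21 ± 0.03 (SE; edgeR adjusted p = 0.000125). In MRPL3 sµg replicate 3 stood close to the other sµg libraries.

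MRPL32, a protein matured by the m-AAA protease of the inner membrane (chromosome 7, 42932376 to 42948958), had 69, 71.1 and 70.6 CPM in 1g and 78.2, 80.5 and 93 CPM in sµg. Its log2 fold change was 0.26 ± 0.06 (SE; edgeR adjusted p = 0.00185) with all libraries and 0.18 without sµg replicate 3, its highest library. MRPL1, which forms the mobile stalk beside the tRNA exit site, had 28.9, 34 and 32.3 CPM in 1g and 36.9, 34.8 and 38.2 CPM in sµg, and the nearest values of the groups were less than 1 CPM apart. MRPL17, with a bacterial counterpart, had 51.6, 53.1 and 54.2 CPM in 1g and 55.6, 59.8 and 65.5 CPM in sµg. MRPL58, a peptidyl-tRNA hydrolase that releases stalled chains and is built into the large subunit, had 25.7, 26.7 and 27 CPM in 1g and 30.8, 28.7 and 31 CPM in sµg. These 3 genes had log2 fold changes of 0.21, 0.19 and 0.19, with adjusted p of 0.0126, 0.0121 and 0.0146 from edgeR. None of the 3 was called without 1g replicate 1 (edgeR adjusted p of 0.111, 0.0674 and 0.0781), and MRPL58 was not called without sµg replicate 1 either (edgeR adjusted p = 0.0517).

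The increases of MRPL51 and MRPL36 also depended on single libraries. MRPL51 had 131.1, 129.3 and 134.8 CPM in 1g and 139.9, 139.5 and 154 CPM in sµg, a log2 fold change of 0.13 (edgeR adjusted p = 0.0212), and was not called without 1g replicate 1 or 2 (edgeR adjusted p of 0.0794 and 0.0953). MRPL36, one of the smallest ribosomal proteins, had 19.5, 20.3 and 18.5 CPM in 1g and 21.4, 21.4 and 24.6 CPM in sµg, a log2 fold change of 0.21 (edgeR adjusted p = 0.0293). It was not called without 1g replicate 1, 1g replicate 3 or sµg replicate 3 (edgeR adjusted p of 0.0815, 0.126 and 0.116), and its log2 fold change was 0.14 in the last of these.

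In the small subunit MRPS35 had the largest increase of all members and the smallest adjusted p. MRPS35, a protein found only in mitochondrial ribosomes (chromosome 12, 27710822 to 27756295), had 53.5, 53 and 56.8 CPM in 1g and 67.5, 65.1 and 70.2 CPM in sµg. All 3 sµg libraries stood clear of 1g, and the log2 fold change was 0.31 ± 0.05 (SE; edgeR adjusted p = 4.24e-05). MRPS11, a conserved protein of the platform of the small subunit, had 26.4, 26.9 and 27.2 CPM in 1g and 30.1, 31.5 and 32 CPM in sµg, a log2 fold change of 0.22 (edgeR adjusted p = 0.00454). MRPS21 had 74.2, 77.3 and 82.5 CPM in 1g and 87.5, 85.6 and 104.5 CPM in sµg, a log2 fold change of 0.25 (edgeR adjusted p = 0.0285) that was 0.16 without sµg replicate 3, and it was not called without 1g replicate 1 or 2 (edgeR adjusted p of 0.0906 and 0.0763). MRPS23 was the only called member whose groups overlapped, with 64.7, 67.9 and 69.7 CPM in 1g and 73.4, 69.2 and 80.1 CPM in sµg. Its log2 fold change was 0.14 (edgeR adjusted p = 0.0439) and it was called in 6 of 16 settings. Among the fits without 1 library it was called without sµg replicate 2 alone, the adjusted p from edgeR being 0.0603 to 0.198 in the others.

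Of the 78 genes, 17 had a negative log2 fold change and 4 were called lower. The place of sµg replicate 3 was not the same in all 4. MRPL28, with a bacterial counterpart (chromosome 16, 366969 to 371289), had 87.4, 90.1 and 89.8 CPM in 1g and 74.2, 74.9 and 83.2 CPM in sµg. Its log2 fold change was −0.20 ± 0.05 (SE; edgeR adjusted p = 0.00241), and sµg replicate 3 lay between the other sµg libraries and 1g. MRPL41 (chromosome 9, 137551879 to 137552555), found only in mitochondrial ribosomes, had 28.2, 26.9 and 26.5 CPM in 1g and 20.4, 19.3 and 26.4 CPM in sµg. The value of sµg replicate 3 was at the level of 1g, and the log2 fold change was −0.30 ± 0.10 (SE; edgeR adjusted p = 0.029) with it and −0.45 (edgeR adjusted p = 1.19e-06) without it. That was the one fit with a library left out in which MRPL41 was called, the adjusted p from edgeR being 0.056 to 0.108 in the others.

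MRPS6, with a bacterial counterpart (chromosome 21, 34073224 to 34143034), had 66.1, 73.2 and 70.5 CPM in 1g and 61.4, 62.2 and 60.3 CPM in sµg, with sµg replicate 3 the lowest. Its log2 fold change was −0.19 ± 0.05 (SE; edgeR adjusted p = 0.00414). SLC5A3, the sodium-coupled myo-inositol transporter, shares 32683 bases with MRPS6 on the same strand and was named after its values were seen. SLC5A3 itself had a log2 fold change of −0.49 (edgeR adjusted p = 4.18e-07), and how reads were divided between the overlapping genes was not tested. MRPL28 likewise shares 502 bases on the same strand with PGAP6, whose log2 fold change was −0.04 (edgeR adjusted p = 0.462). Some called members overlap genes on the opposite strand, such as MRPL51 with NCAPD2 (486 bases) and MRPS18A with RSPH9 (1399 bases). Whether counting used strand is not stated, and mixing of reads there was not tested either.

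The 3 MRPS18 paralogues, which derive from 1 bacterial protein, did not share a direction that passed the test. MRPS18A, whose protein sits in the large subunit (chromosome 6, 43671202 to 43687791), had 60.9, 59.7 and 61.4 CPM in 1g and 53.9, 52.9 and 56.1 CPM in sµg, a log2 fold change of −0.16 ± 0.04 (SE; edgeR adjusted p = 0.00871). As given above, it was not called with the length offset or by limma. MRPS18B was at 60.4 ± 2.06 CPM under 1g and 62 ± 0.952 CPM under sµg, a log2 fold change of 0.04 (edgeR adjusted p = 0.564). MRPS18C had 35.4 ± 0.533 and 37.6 ± 3.19 CPM, a log2 fold change of 0.09 (edgeR adjusted p = 0.285). The differences between the paralogues were not tested.

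Transcripts of all 78 members were tested as well, 280 in all. In edgeR 1 passed as higher after adjustment and 0 passed as lower, where 0.476% of all 53807 transcripts tested were higher and 1.29% lower. At an unadjusted p under 0.05, 14 member transcripts were higher and 7 lower, and no other tool was run on transcripts. With any 1 library left out 0 member transcripts passed as higher.

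A head-to-head neighbour, read from the opposite strand and starting within 500 bases, was tested for 23 members, and those of the called members are given here. PSMA2, a proteasome core subunit that starts 191 bases from MRPL32, held 265.6 ± 4.44 CPM in 1g and 294.3 ± 14.4 CPM in sµg, with a log2 fold change of 0.15 (edgeR adjusted p = 0.00658). An unnamed protein-coding gene that starts 162 bases from MRPL32 had 10.2 ± 0.909 and 14.3 ± 2.37 CPM, a log2 fold change of 0.49 (edgeR adjusted p = 0.00273). PSMA2 and this gene are read from the same strand, and how reads were divided between them was not tested. ZNF189, a zinc finger gene that starts 233 bases from MRPL50, had 18.2 ± 1.33 and 22 ± 0.967 CPM, a log2 fold change of 0.27 (edgeR adjusted p = 0.00569). So both genes of the MRPL32–PSMA2 and MRPL50–ZNF189 pairs were higher in sµg.

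Other pairs did not move together past the test. NDUFS6, a complex I subunit 41 bases from MRPL36, had a log2 fold change of 0.04 (edgeR adjusted p = 0.577), and NCAPD2, a condensin subunit whose gene overlaps the start of MRPL51, one of 0.08 (edgeR adjusted p = 0.127). MRPS11 starts 63 bases from another member, MRPL46, which was at 27 ± 0.851 CPM under 1g and 29.2 ± 2.44 CPM under sµg, a log2 fold change of 0.11 (edgeR adjusted p = 0.198). The stretches upstream of MRPL32 and MRPL50, up to the nearest gene start on the opposite strand, are given because they lie between the starts of the pairs in which both genes were higher. They are from RefSeq on GRCh38.p14, 5′ to 3′ along the member's strand and up to its annotated start, at chr7:42932215-42932375 (plus strand) for MRPL32 and chr9:101398619-101398850 (minus strand) for MRPL50, and capitals mark a CCAAT box on either strand.
MRPL32: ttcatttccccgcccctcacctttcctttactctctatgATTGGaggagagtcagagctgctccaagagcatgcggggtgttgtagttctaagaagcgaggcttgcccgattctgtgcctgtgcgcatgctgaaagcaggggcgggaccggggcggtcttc
MRPL50: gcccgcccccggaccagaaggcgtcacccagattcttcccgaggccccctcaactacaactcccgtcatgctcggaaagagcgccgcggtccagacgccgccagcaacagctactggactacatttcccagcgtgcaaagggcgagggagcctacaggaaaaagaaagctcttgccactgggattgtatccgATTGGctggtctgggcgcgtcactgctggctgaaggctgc

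RefSeq held a promoter window of 250 bases before to 50 bases after the start for 69 of the 78 members. MRPL2, MRPL10, MRPL13, MRPL15, MRPL21, MRPL23, MRPL35, MRPS28 and MRPS36 had no entry. Exact matches to short motifs were searched on both strands. The letters CCGGAAG, the core bound by ETS factors such as GABP, were in 29 windows (42%), against 18.2% of the windows of all protein-coding genes tested and 10.7% of all 27305 windows. AAGATGG, the core bound by YY1, was in 23 (33.3%), against 7.07% and 6.06%. The longer NRF1 motif was in 8 (11.6%), against 10.9% and 6.28%. No motif given here contains another. CACGTG, the E-box bound by MYC proteins, was in 8.70% against 9.92% of the tested genes' windows, CCAAT in 29% against 36.3%, and TATAAA in 2.90% against 5.65%.

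Members with the ETS letters were found on both sides of 0. The letters were in 5 of the 12 windows of members that were higher, in 2 of the 4 that were lower and in 22 of the 53 that were not called. MRPS21, which was higher, and MRPS18A, which was lower, both held the ETS letters and a CCAAT box, and the stretches before their starts are shown to set 2 opposite changes beside each other. They lie at chr1:150293611-150293860 (plus strand) and chr6:43687792-43688041 (minus strand) of GRCh38.p14, from RefSeq and 5′ to 3′ along each gene, with both motifs in capitals on whichever strand they were found.
MRPS21: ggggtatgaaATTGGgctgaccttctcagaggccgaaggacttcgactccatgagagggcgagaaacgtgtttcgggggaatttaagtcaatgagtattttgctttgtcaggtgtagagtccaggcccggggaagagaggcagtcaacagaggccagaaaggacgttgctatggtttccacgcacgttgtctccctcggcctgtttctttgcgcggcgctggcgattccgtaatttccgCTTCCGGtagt
MRPS18A: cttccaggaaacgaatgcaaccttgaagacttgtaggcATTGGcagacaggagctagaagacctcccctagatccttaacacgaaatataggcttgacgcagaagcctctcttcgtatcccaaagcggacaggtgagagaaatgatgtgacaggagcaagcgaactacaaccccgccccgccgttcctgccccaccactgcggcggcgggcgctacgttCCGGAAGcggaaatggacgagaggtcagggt
In both genes the ETS letters lie close to the start and the CCAAT box farther away. The promoter window of MRPS18A also held AAGATGG, the YY1 core, outside the stretch shown, and that of MRPS21 did not hold it.

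The genes around the mitochondrial ribosome moved little as well, and the largest changes among these lists were in other genes than the members. Of 95 further nuclear genes of mitochondrial translation and gene expression, edgeR called 18 higher and 4 lower in sµg. That was 18.9% and 4.21%, against 15.5% and 18.2% of all genes tested. The median log2 fold change was 0.05. Without sµg replicate 3 the calls were 15 and 4, in a fit that called 36.3% of all genes tested. With an offset for effective length they were 7 and 1, in a fit that called 18.5% of all genes. Of the 5 mitoribosome proteins under other names, edgeR called 0, with 0 at an unadjusted p under 0.05, DESeq2 called 0 and limma on log2(TPM + 1) called 1 higher. GADD45GIP1, PTCD3 and CHCHD1 among them had log2 fold changes of 0.10, −0.07 and 0.09. Of 30 genes for ribosome assembly and rRNA modification, edgeR called 7 higher and 0 lower, or 23.3% against 33.7% of all genes tested. DESeq2 and limma called 0 lower, as did edgeR at an unadjusted p under 0.05. Without sµg replicate 3, however, edgeR called 5 higher and 1 lower. Limma on log2(TPM + 1) called 3 higher, and the fit with the length offset 2 higher. MTERF3, which acts in mitochondrial transcription and ribosome assembly, had 12.2, 13 and 13.6 CPM in 1g and 17, 17.7 and 20.3 CPM in sµg, a log2 fold change of 0.50 ± 0.08 (SE; edgeR adjusted p = 0.000106). FASTKD2, which binds the large rRNA, had 83.4 ± 0.480 and 93.5 ± 3.08 CPM, and RCC1L, an assembly factor, 65.8 ± 1.86 and 73.6 ± 1.3 CPM (SD, n = 3 each).

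Of 20 translation factors and mRNA partners, edgeR called 1 higher and 0 lower, or 5% against 33.7% of all genes tested. At an unadjusted p under 0.05 edgeR had 1 lower, and DESeq2 and limma called 0 lower. MRRF and MTRF1L, a recycling and a release factor, had log2 fold changes of 0.13 and −0.11 that did not pass the test. SLIRP, which stabilises mitochondrial mRNAs together with LRPPRC, rose from 88.5, 88.8 and 94.8 CPM in 1g to 107.3, 114.8 and 132.8 CPM in sµg, a log2 fold change of 0.38 (edgeR adjusted p = 0.00201). Its highest value was again in sµg replicate 3. Of 20 genes for mitochondrial tRNA synthetases and amidotransferase subunits, 5 were higher and 2 lower, or 35%, near the share of all genes tested. FARS2 rose from 11.1 ± 0.604 to 14.9 ± 1.20 CPM and IARS2 from 109.5 ± 1.10 to 124.5 ± 4.29 CPM, while EARS2 fell from 92.5 ± 1.60 to 83.9 ± 2.17 CPM. Of 20 genes for transcription and genome upkeep, 5 were higher and 2 lower, also 35%. TRMT10C, a subunit of mitochondrial RNase P, rose from 57.3 ± 2.27 to 68.2 ± 4.38 CPM and SSBP1, which binds single-stranded mitochondrial DNA, from 147.2 ± 5.17 to 167.1 ± 12.7 CPM. TOP1MT, the mitochondrial topoisomerase, fell from 46.8 ± 2.18 to 39.7 ± 1.88 CPM.

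Among 15 regulators of nuclear genes for mitochondria, 2 were higher and 3 lower, or 33.3% called against 33.7% of all genes tested. MYCN, a MYC family factor, fell from 201.3 ± 9.20 to 138.5 ± 5.40 CPM (log2 fold change −0.54, edgeR adjusted p = 1.3e-08). GABPB1, a subunit of GABP, rose from 35.7 ± 1.91 to 42.4 ± 3.21 CPM and NRF1 from 20.8 ± 0.699 to 23.9 ± 0.371 CPM. MYCN and GABPB1 thus changed in opposite directions.

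**Figure D4:**
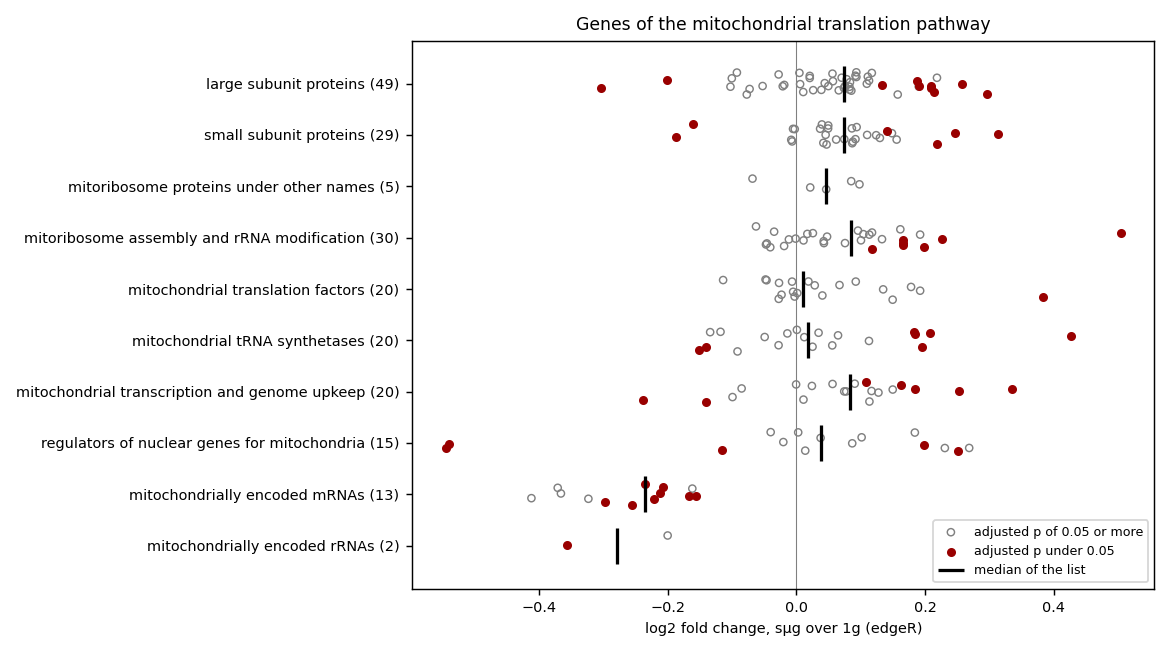
edgeR log2 fold change (sµg over 1g) of each tested gene of the members and of the lists around them, with filled points for an adjusted p under 0.05 and black lines for the median of each list, points being spread vertically for legibility. The medians of both subunits lie at 0.07, and the mitochondrially encoded mRNAs all lie below 0 with a median of −0.24.

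The mRNAs that the mitochondrial ribosome translates were lower in sµg. All 13 had a negative log2 fold change, with a median of −0.24, 8 passed the test, and 12 did not overlap between the conditions. Of all genes tested, 18.2% were called lower, and for 23.7% all sµg libraries lay below all 1g libraries. Without sµg replicate 3 the median of the 13 mRNAs was −0.17 and 12 of them passed. In limma on log2(TPM + 1) 4 passed. MT-CO1, the core subunit of cytochrome c oxidase, had 13367, 12767 and 12777 CPM in 1g and 10821, 10956 and 9891 CPM in sµg, a log2 fold change of −0.30 ± 0.04 (SE; edgeR adjusted p = 3.52e-05). MT-CO3, another core subunit of that oxidase, fell from 7396 ± 109 to 6282 ± 112 CPM, and MT-ND3, of complex I, from 406.9 ± 7.06 to 349.1 ± 7.52 CPM. Of the rRNAs, MT-RNR1 of the small subunit fell from 1181 ± 29.2 to 922.5 ± 86.1 CPM (log2 fold change −0.36, edgeR adjusted p = 0.000376). MT-RNR2 of the large subunit had 6497 ± 81.2 and 5655 ± 808 CPM (edgeR adjusted p = 0.23), with 4722 CPM in sµg replicate 3. Poly(A) selection captures these rRNAs incompletely, and how completely it captured the 13 mRNAs was not tested. The median log2 fold change was thus above 0 for the members and below 0 for the mRNAs they translate, and sµg replicate 3 was the farthest from 1g for both.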

How the data were processed

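RNA libraries of 3 sµg and 3 1g samples were sequenced. The submitters' processing notes name STAR 2.7.7a, RSEM 1.3.3 and GRCh38.p13. The deposited gene and transcript tables hold the authors' expected counts, in which RSEM shares reads that match several genes or transcripts, and the authors' TPM values, scaled to transcript length. The deposited transcript tables also hold the percent of a gene's RNA in each transcript. The sources used here do not say which of the authors' alignment settings gave these tables, or whether counting used strand. FPKM values were not used here, and 1 transcript is not reported by name.

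Gene IDs were matched to GENCODE 44 for symbols and coordinates. After rounding of the expected counts to integers, all genes were fitted in R 4.3.3 with edgeR 4.0.16 (filterByExpr at 10 counts and 15 in total, TMM scaling, robust quasi-likelihood test, condition as the only factor, Benjamini-Hochberg adjusted p under 0.05). CPM values are relative to the TMM-scaled library total. Depth was 19971097 to 28506848 expected counts per library, and the biological coefficient of variation was 3.96%. An exact permutation test of 1 value over 3 against 3 libraries cannot pass the threshold, so p-values come from the fit across all genes. The authors report at least triplicate experiments and call the sequenced controls matched, without saying how. The main fit used no matching. Whether these libraries came from separate cultures is not stated, so the p-values reflect only how much these samples varied, possibly for technical reasons.

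The genes named are the members called in either direction (up to 12 each), the 3 highest and 3 lowest by TPM in each subunit, the MRPS18 paralogues, up to 3 genes of each further list by p, and head-to-head neighbours within 500 bases of called members. Others named were chosen after their values were seen, including members that changed call without 1 library and those at the ends of the ratio of sµg replicate 3. The members and lists were chosen with earlier results of these data known.

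Alternatives were DESeq2 1.42.0, RLE and upper quartile scaling, an offset for effective length, no filter on low counts, a filter at 10 counts in all libraries, limma 3.58.1 on TPM with 1 or 0.1 added before the log2, leaving out single libraries, a block for the replicate number, and an adjusted p under 0.01. Placing MRPS18A and MRPS30 with the large subunit was added after the data were seen. The scripts were first checked on simulated data, of which no value is reported.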

Additional observations from a re-analysis of the deposited data

How the results depend on the processing

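Of the 16 called members, MRPL50, MRPL32, MRPS35, MRPL3, MRPL28 and MRPS11 were called in all 16 settings run at an adjusted p under 0.05. MRPS23 was called in 6 and MRPL41 in 8. With an offset for effective length, large subunit calls were 4 higher and 1 lower and small subunit calls included 1 lower. The further genes of the pathway then gave 7 higher and 1 lower. With limma on TPM, with 1 or 0.1 added before the log2, the large subunit gave 1 lower and the small subunit 0 lower in each. Over both subunits 14 and 13 members were higher, against 12 in the main fit. The pathway gave 11 and 10 higher and 0 lower in each. DESeq2 called 10 members higher and 4 lower, or 17.9% against 25.8% of all genes, and 2 pathway genes lower. MRPL36, MRPL58 and MRPS23 were not called by DESeq2, and MRPL52 was newly called. At an adjusted p under 0.01, calls were 3 higher and 1 lower in the large subunit, 2 higher in the small subunit, and 8 higher and 1 lower in the pathway. Placing MRPS18A in the large subunit left 1 lower gene in the small subunit. The causes were not tested.

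With 1 library left out at a time, the higher and lower calls ranged from 3 to 12 and 1 to 5 in the large subunit, from 2 to 8 and 2 to 3 in the small subunit, and from 9 to 19 and 2 to 4 in the pathway. The 1 higher member transcript was called in none of these fits (0 calls). The transcripts gave 3 higher when at least 10 counts were required in every library.

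With 1 library left out at a time, the MRPL57 log2 fold change ranged from −0.047 to 0.15, the MRPS31 log2 fold change from −0.0069 to 0.11 and the CHCHD1 log2 fold change from −0.023 to 0.14, the lowest being without sµg replicate 3. The PTCD3 log2 fold change was 0.00958 and 0.00964 in the limma fits. The MRPS34 log2 fold change, −0.0053 with all libraries, was 0.0052 with the length offset, 0.035 with either limma fit, and from −0.10 to 0.077 with 1 library left out, and passed the test without sµg replicate 3.

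Samples with the same replicate number did not deviate together (correlations of 0.00, 0.04 and 0.01). With the replicate number as a block, 14 members were higher and 4 lower, MRPL24 and MRPL52 being added, and 0 member transcripts were higher. The lowest count of a member in a library was 202. Each group had 3 libraries, and sµg replicate 3 was the highest sµg library for 25 of the 26 members from 500 to 1000 bases and 24 of the 32 from 1000 to 1500 bases.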

Other observations

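MRPL48-201, the canonical transcript of MRPL48 and chosen here after its values were seen, had 12.4, 13.9 and 13.5 CPM in 1g and 8.36, 9.32 and 9.51 CPM in sµg. Its log2 fold change of −0.55 did not pass the test (adjusted p = 0.0754 from edgeR across all transcripts). It held 25.7% of its gene's RNA in 1g and 17.9% in sµg as the authors' estimates give it, and the gene as a whole was not called.

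Further pairs of head-to-head genes, also chosen after their values were seen, held a called neighbour beside a member that was not called. SKA3, a kinetochore gene that starts 106 bases from MRPL57, rose from 47.7 ± 0.783 to 60.3 ± 2.23 CPM (SD, n = 3 each; log2 fold change 0.34, adjusted p = 1.53e-05 from edgeR), while MRPL57 had 33 ± 2.7 and 35.1 ± 5.32 CPM. TWNK, the mitochondrial DNA helicase, whose gene overlaps the start of MRPL43, fell from 52.8 ± 0.904 to 47.9 ± 3.08 CPM (adjusted p = 0.0407 from edgeR). Over the 22 tested neighbours that are not members themselves, 5 were higher and 1 was lower, where 15.5% and 18.2% of all genes tested were. PSMA2 and the unnamed gene beside MRPL32 are both counted among the 5.

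MRPS31 has a transcribed pseudogene, MRPS31P5, that was counted at 8.39 CPM in 1g and 7.55 CPM in sµg, against 28.7 CPM in 1g for MRPS31 itself. How reads were divided between them was not tested.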
